A study of Homo sapiens with 12 samples.

Results

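The keratins of stratified and squamous epithelia examined here are *KRT4*, *KRT5*, *KRT6A*, *KRT6B*, *KRT13*, *KRT14*, *KRT15*, *KRT16*, *KRT17* and *KRT80*. They were taken by gene symbol from the deposited expression table, and all 10 were found among its 23346 genes. RNA-seq was carried out on SW1990 and CFPAC-1, both established human pancreatic adenocarcinoma cell lines, after the cells of each line had been sorted with GCTM-5, an antibody to a cell surface antigen. Each line gave 3 samples of GCTM-5 positive and 3 of GCTM-5 negative cells, so that 12 samples fell into 4 groups named by line and antigen. The cultures received no drug and carried no engineered allele, the gates kept only the brightest and the unstained cells, and each group is a fraction of a single line grown as a monolayer. The study describes triplicate sorts and does not say whether these came from separate cultures, so that the p-values below measure the spread between sorted samples. For the library kit, the secondary antibody and the culture medium, the study's methods and the sample labels give different products.

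Keratins form the intermediate filaments of epithelial cells from obligate pairs, in which an acidic type I protein joins a basic type II protein. Simple ductal epithelia such as that of the pancreas rely on *KRT7*, *KRT8*, *KRT18* and *KRT19*, whereas stratified epithelia express further pairs by layer and tissue. *KRT5* and *KRT14* are the pair of the basal layer, where the type I keratin *KRT15* is also found, and *KRT4* and *KRT13* are the pair of the moist mucosa that lines the mouth and oesophagus. *KRT6A* and *KRT6B* are type II keratins that pair with the type I keratins *KRT16* and *KRT17* in hair follicles, nails and wounded or hyperproliferative skin. *KRT80* is a type II keratin found in many epithelia.

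In the GRCh37 assembly the genes lie on the minus strand of both keratin clusters. The type II genes are on chromosome 12, with *KRT80* at chr12:52562780-52585798, *KRT6B* at chr12:52840435-52845930, *KRT6A* at chr12:52880960-52887041, *KRT5* at chr12:52908359-52914314 and *KRT4* at chr12:53200333-53207900. The type I genes are on chromosome 17, with *KRT13* at chr17:39657233-39661957, *KRT15* at chr17:39669997-39678781, *KRT14* at chr17:39738531-39743147, *KRT16* at chr17:39766030-39772151 and *KRT17* at chr17:39775694-39781094. *KRT6A* and *KRT6B*, and likewise *KRT14*, *KRT16* and *KRT17*, have near-identical copies, and how the authors assigned reads that match several of these is not given in the sources used here. The split of reads within these families is therefore uncertain.

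Promoter sequences were at hand for 2 of the 10 genes, *KRT4* and *KRT5*. Both are printed because they are type II genes of the same cluster whose levels in negative cells lay in opposite orders in the lines. The 250 bases before each start site are given 5′ to 3′ on the minus strand, from RefSeq and the GRCh38.p14 assembly, at chr12:52814117-52814366 for *KRT4* and chr12:52520395-52520644 for *KRT5*. Capitals mark matches to the motifs named after the sequences.
KRT4: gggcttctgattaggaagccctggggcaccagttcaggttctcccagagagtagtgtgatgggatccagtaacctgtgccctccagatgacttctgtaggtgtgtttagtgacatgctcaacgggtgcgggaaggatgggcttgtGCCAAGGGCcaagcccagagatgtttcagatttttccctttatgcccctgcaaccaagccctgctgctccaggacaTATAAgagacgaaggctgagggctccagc
KRT5: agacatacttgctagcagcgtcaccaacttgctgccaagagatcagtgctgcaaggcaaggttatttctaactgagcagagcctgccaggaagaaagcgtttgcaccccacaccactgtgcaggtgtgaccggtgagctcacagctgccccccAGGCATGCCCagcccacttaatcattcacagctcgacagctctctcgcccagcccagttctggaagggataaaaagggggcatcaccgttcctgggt
Both strands were searched for AP-1 (TGANTCA), Sp/KLF (GGGCGG), GRHL (AACCGGTT), AP-2 (GCCNNNGGC), a TATA box (TATAA) and the half-site of the p53 family. In *KRT4* the AP-2 letters lay 105 to 97 bases and the TATA letters 29 to 25 bases before the start, and in *KRT5* the p53 family half-site lay 97 to 88 bases before it. No match overlapped another. Among 35116 promoters of the same length, 19.8% held the AP-2 letters, 18.9% the TATA letters and 5.57% the p53 family half-site. The letters of AP-1, Sp/KLF and GRHL, held by 6.57%, 42.6% and 0.117% of promoters, were not in either window.

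The deposited values are RPKM, reads per kilobase of gene and per unit of library size, which allow levels to be compared between genes. Library totals recovered from the values had their lowest value (9969697 reads) and their highest (26159330 reads) in replicates 3 and 1 of positive CFPAC-1 cells, and 16135 to 17224 genes were above 0 in a sample. Within groups, the log2 values of replicates had Pearson correlations of 0.968 to 0.986 across genes, which are not independent replicates. Log2 fold changes are on the scale of log2(RPKM + 0.1), which understates the change of low genes, and were tested with limma in 1 model of all samples, 2-sided and with no pairing. A gene is said to be called, or to have risen or fallen, when its change exceeded 2-fold and its unadjusted p was under 0.01, which are the study's thresholds with its p read as unadjusted. For the contrast of both lines, the change in SW1990 minus that in CFPAC-1, an adjusted p (Benjamini-Hochberg) under 0.05 made a call. Adjusted p-values are over the 16236 genes whose mean reached 0.1 RPKM, a filter that all 10 keratins passed. Where a group held at most 3 reads in each library, the ratio of pooled reads per library size is given with its exact 95% interval, since the fitted value then depends on the added constant. Such intervals cover counting error only, since amplified reads are not independent molecules.

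In SW1990, GCTM-5 positive cells held more RNA of 6 of the 10 keratins (*KRT6A*, *KRT6B*, *KRT13*, *KRT15*, *KRT16* and *KRT17*) and less of 1 (*KRT14*). In CFPAC-1, 3 rose (*KRT5*, *KRT6A* and *KRT6B*) and none fell by both thresholds, with *KRT15* lower in every positive sample by less than 2-fold. Over all genes tested, 4.59% were called higher and 7.48% lower in SW1990, or 12.1% in either direction, and 5.65% and 4.13% in CFPAC-1, or 9.78% in either direction. The median log2 fold change of the keratins was 1.90 in SW1990, beside -0.04 for all genes. In CFPAC-1 it was 0.17, or 0.34 with *KRT6B* at its ratio of reads and *KRT14*, which was at the limit of depth, left out, beside 0.05 for all genes. In these bulk samples, fewer cells that express a gene and less RNA per cell cannot be told apart.

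Samples of positive and negative SW1990 cells did not overlap for 9 of the 10 genes, 8 of them higher and 1 lower in positive cells, against 17.9% and 25.4% of all genes. In CFPAC-1, 4 of the genes were higher and 1 was lower without overlap, against 28.1% and 20.4% of all genes. *KRT6A* and *KRT6B* were called in the same direction in both lines, and no keratin was called in opposite directions. The share of all genes called in both lines was not counted. In CFPAC-1 the call of *KRT6B* rested on 16 against 2 reads and was lost under several settings, as given below.

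**Figure D1:**
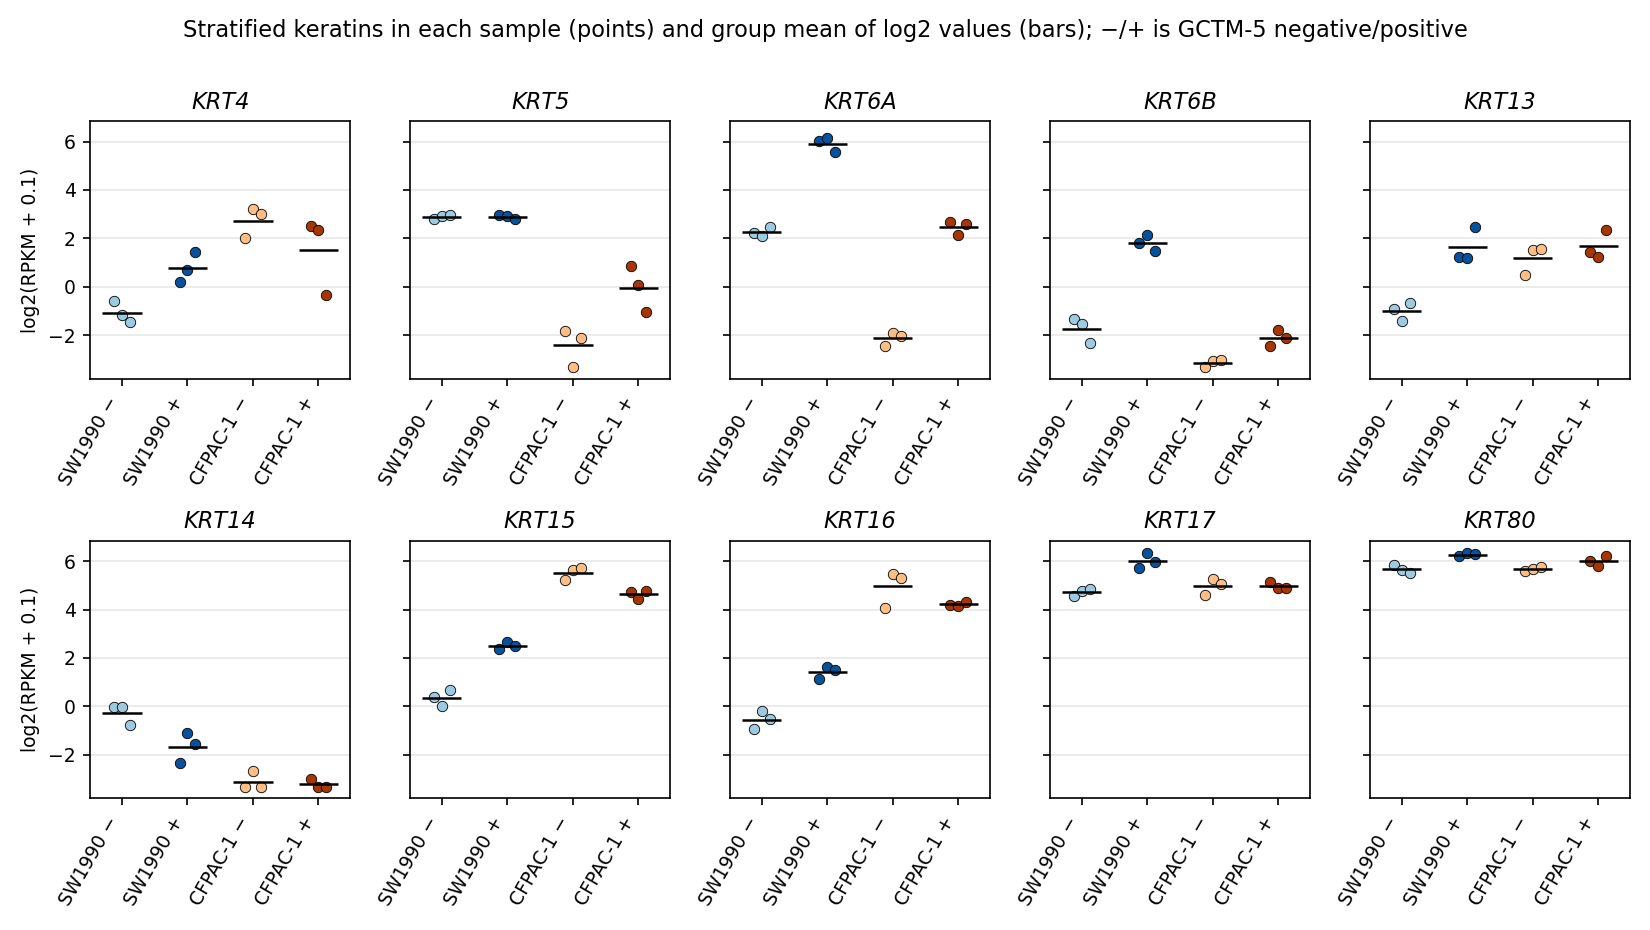
Level of each keratin in each of the 12 samples, as log2(RPKM + 0.1) on the vertical axis, for the 4 groups on the horizontal axis. Points are samples and bars the mean of the log2 values of 3 samples. *KRT6A* stepped up from negative to positive cells in both lines, *KRT15* and *KRT16* were highest in CFPAC-1, and *KRT5* and *KRT14* were highest in SW1990.

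*KRT6A* rose with the antigen in both lines. Negative SW1990 samples held 4.53, 4.17 and 5.52 RPKM, and positive ones 64.2, 70.9 and 47.3. Negative CFPAC-1 samples held 0.0839, 0.168 and 0.143 RPKM, from 4 to 9 reads each, and positive ones 6.29, 4.35 and 5.98, from 146 to 403 reads. In neither line did the groups overlap, and positive CFPAC-1 cells reached about the level of negative SW1990 cells, whose samples they overlapped. The group means in SW1990 were 4.74 ± 0.695 and 60.8 ± 12.2 RPKM (SD, n = 3), a log2 fold change of 3.64 ± 0.21 (SE; limma, adjusted p = 2.52e-07). In CFPAC-1 the means were 0.132 ± 0.0433 and 5.54 ± 1.04 RPKM, a log2 fold change of 4.60 ± 0.21 (adjusted p = 8.57e-07). The rise was thus 12.5-fold in SW1990 and 24.3-fold in CFPAC-1 on this scale. Both rises were called under every alternative setting tried, with log2 fold changes of 3.42 to 3.81 in SW1990 and, from negative samples near 0, 2.52 to 5.32 in CFPAC-1.

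The difference of these rises, SW1990 minus CFPAC-1, was -0.96 ± 0.29 on the log2 scale (adjusted p = 0.0298). It turned to 0.90 (adjusted p = 0.0121) when 1 instead of 0.1 was added to each RPKM. The call was also lost with each sample centred on its median (-0.81, adjusted p = 0.0579), with no filter, with a replicate block and without any of 6 samples (-0.99 to -0.79, adjusted p 0.0502 to 0.0804), namely negative SW1990 replicates 1 and 3, positive SW1990 replicate 3, negative CFPAC-1 replicate 1 and positive CFPAC-1 replicates 1 and 3. Only the pseudocount of 1, above the mean of 0.132 RPKM in negative CFPAC-1 cells, turned the sign. Under all other settings the rise was larger in CFPAC-1, though the call was lost under those named.

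*KRT6B*, the close copy of *KRT6A*, followed it at a far lower level. Negative SW1990 samples held 0.299, 0.245 and 0.0991 RPKM and positive ones 3.37, 4.36 and 2.72. In CFPAC-1, negative samples held 0, 0.020 and 0.0220 RPKM, from at most 1 read each, and positive samples 0.0838, 0.187 and 0.132, from 3 to 8 reads. Each line had all positive samples above all negative ones, and CFPAC-1 stayed close to the limit of detection. In SW1990 the log2 fold change was 3.55 ± 0.31 (SE; limma, adjusted p = 5.16e-06), from a mean of 0.214 ± 0.103 to 3.48 ± 0.827 RPKM (SD, n = 3). In CFPAC-1 the 3 positive libraries held 16 reads and the negative ones 2, a ratio of 8.93 per library size (exact 95% interval 2.10 to 80.0), and the fitted log2 fold change was 1.02 ± 0.31 (adjusted p = 0.0226). The call in CFPAC-1 was lost with a pseudocount of 1 (0.16), with each sample centred on its median (0.92, adjusted p = 0.0404) and without any 1 of the 3 negative samples or of positive replicates 2 and 3 (0.86 to 1.07, adjusted p 0.0409 to 0.0716).

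The change of *KRT6B* differed between the lines by 2.53 ± 0.44 on the log2 scale (adjusted p = 0.00133), with the larger rise in SW1990. The fold in SW1990, 11.7, lay within the interval of the ratio of reads in CFPAC-1. With a pseudocount of 0.01 the difference was 1.37 (adjusted p = 0.24), and in a fit on recovered reads it was 1.42 (adjusted p = 0.252). In positive SW1990 samples *KRT6B* was at 5.24%, 6.15% and 5.76% of the RPKM of *KRT6A*, and in positive CFPAC-1 samples at 1.33%, 4.29% and 2.21%. The third copy, *KRT6C*, had 0 to 3 reads in a sample. How reads shared by these copies were assigned is not known, and any part of *KRT6A* reads in the values of *KRT6B* was not tested.

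*KRT16* and *KRT17*, the type I partners of the *KRT6* proteins, did not share the pattern of *KRT6A* in CFPAC-1. For *KRT16*, negative SW1990 samples held 0.425, 0.776 and 0.593 RPKM and positive ones 2.10, 2.95 and 2.73. In CFPAC-1 negative samples held 16.8, 44.7 and 39.3 RPKM and positive ones 18.3, 17.7 and 19.7. Every positive SW1990 sample was above every negative one, whereas in CFPAC-1 negative replicate 1 lay below all positive samples and the other two negative samples above them. The rise in SW1990 was 1.97 ± 0.31 on the log2 scale (SE; limma, adjusted p = 0.000517), or 3.91-fold. In a fit on recovered reads it was 2.10 (adjusted p = 0.0443) and was not called.

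In CFPAC-1 the log2 fold change of *KRT16* was -0.73 ± 0.31 (adjusted p = 0.0859) and was not called. Without negative replicate 1 it was -1.17 (adjusted p = 0.0027) and was called. The lines differed in this change by 2.70 ± 0.44 (adjusted p = 0.000963), which was called under every alternative setting tried.

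*KRT17* was among the 4 most abundant of the 10 keratins in every group. Negative SW1990 samples held 23.2, 26.9 and 28.8 RPKM and positive ones 52.3, 81.5 and 62.1. In CFPAC-1 the level was 24.2, 38.0 and 33.3 RPKM in negative samples and 34.9, 29.2 and 30.0 in positive ones. Positive SW1990 samples were thus above all others, and the other 3 groups lay close together. The rise in SW1990 was 1.29 ± 0.18 on the log2 scale (SE; limma, adjusted p = 0.000207), or 2.45-fold. In CFPAC-1 the log2 fold change was -0.00 with a standard error of 0.18, and its sign turned with several settings. The difference between the lines was 1.29 ± 0.26 (adjusted p = 0.00315), called under every alternative setting tried.

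The basal layer keratins *KRT5*, *KRT14* and *KRT15* each behaved differently. *KRT5* was held by negative SW1990 samples at 6.93, 7.50 and 7.61 RPKM and by positive ones at 7.61, 7.60 and 6.94. Negative CFPAC-1 samples held 0.178, 0 and 0.131 RPKM, from 0 to 8 reads, and positive ones 1.69, 0.948 and 0.392, from 9 to 102 reads. In SW1990 the groups covered the same range, and in CFPAC-1 all positive samples were above all negative ones, though the positive samples spread widely. The log2 fold change was 0.01 ± 0.43 in SW1990 (SE; limma) and 2.39 ± 0.43 in CFPAC-1 (adjusted p = 0.00144). With a pseudocount of 1 the rise in CFPAC-1 was 0.82, under 2-fold, at an adjusted p of 0.00518. The change in SW1990 minus that in CFPAC-1 was -2.38 ± 0.61 (adjusted p = 0.0134), which was called under every alternative setting tried.

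*KRT14*, the usual type I partner of *KRT5*, was scarce everywhere. Negative SW1990 samples held 0.892, 0.893 and 0.484 RPKM, from 14 to 34 reads, and positive ones 0.0945, 0.360 and 0.242, from 3 to 10 reads. In CFPAC-1 it was at 0, 0.0559 and 0 RPKM in negative cells and 0.0234, 0 and 0 in positive cells, from at most 2 reads. It alone of the 10 had every positive SW1990 sample below every negative one, and no CFPAC-1 sample was above the limit of 3 reads. The log2 fold change in SW1990 was -1.41 ± 0.36 (SE; limma, adjusted p = 0.0122). The call was lost with pseudocounts of 1 (-0.51) and 0.01 (-1.79, adjusted p = 0.154), with SW1990 fitted alone (adjusted p = 0.0484) and without negative replicate 1, negative replicate 2 or positive replicate 1 (-1.28 to -1.07, adjusted p 0.0457 to 0.0494). No fold is given for CFPAC-1, and the difference between the lines was not called (-1.30 ± 0.52, adjusted p = 0.0829). With both CFPAC-1 groups at the limit of depth, that test cannot tell whether the lines differed.

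*KRT15* rose in SW1990 and was lower in every positive CFPAC-1 sample. Negative SW1990 samples held 1.22, 0.911 and 1.47 RPKM and positive ones 5.01, 6.21 and 5.52. Negative CFPAC-1 samples held 36.8, 49.9 and 52.7 RPKM and positive ones 26.4, 21.2 and 27.3. The groups of a line did not overlap, and the lowest CFPAC-1 sample was above the highest of SW1990. The log2 fold change was 2.15 ± 0.18 in SW1990 (SE; limma, adjusted p = 4.32e-06) and -0.88 ± 0.18 in CFPAC-1 (adjusted p = 0.00311), the latter under 2-fold and so not called. Without negative CFPAC-1 replicate 1 the value in CFPAC-1 was -1.04 (adjusted p = 0.00252), past both thresholds. The difference between the lines was 3.03 ± 0.26 (adjusted p = 1.19e-05), or 8.17-fold, and was called under every alternative setting tried.

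The mucosal pair *KRT4* and *KRT13* spread widely between replicates. For *KRT4*, negative SW1990 samples held 0.567, 0.340 and 0.263 RPKM and positive ones 1.03, 1.51 and 2.60. Negative CFPAC-1 samples held 3.95, 9.05 and 7.85 RPKM and positive ones 5.63, 5.01 and 0.701. Positive samples were higher in SW1990 without overlap, and in CFPAC-1 the groups overlapped, with positive replicate 3 far below the rest. That library was also the shallowest and gave 15 reads of *KRT4*, and the part of its depth in the value was not tested. The log2 fold change of 1.84 ± 0.64 in SW1990 was not called (SE; limma, adjusted p = 0.0512). It was called at the same size without positive CFPAC-1 replicate 3, which adds to the spread shared by all groups (adjusted p = 0.00358), with SW1990 fitted alone (adjusted p = 0.0224) and with quantile normalization (2.08, adjusted p = 0.0294).

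In CFPAC-1 the log2 fold change of *KRT4* was -1.22 ± 0.64 (adjusted p = 0.161), not called, and without positive replicate 3 it was -0.30 (adjusted p = 0.614). The difference between the lines was 3.06 ± 0.91 (adjusted p = 0.0272), or 2.14 without that library (adjusted p = 0.016). The call was lost with no filter (adjusted p = 0.0822) and without any of 5 samples (2.73 to 3.01, adjusted p 0.0552 to 0.0692), namely negative SW1990 replicates 2 and 3, positive SW1990 replicate 3 and negative CFPAC-1 replicates 2 and 3.

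For *KRT13*, negative SW1990 samples held 0.426, 0.276 and 0.527 RPKM and positive ones 2.25, 2.16 and 5.46. Negative CFPAC-1 samples held 1.32, 2.77 and 2.87 RPKM and positive ones 2.63, 2.27 and 4.97. Negative SW1990 cells stood below the 3 other groups, which overlapped one another. The rise in SW1990 was 6.21-fold, with a standard error of 0.42 on the log2 scale (limma, adjusted p = 0.000498), and in CFPAC-1 the log2 fold change was 0.48 ± 0.42 (adjusted p = 0.396), not called. The difference between the lines was 4.45-fold (SE 0.59 on the log2 scale, adjusted p = 0.0181). It was not called with a pseudocount of 1 (adjusted p = 0.0574), with no filter (adjusted p = 0.0552) or without negative CFPAC-1 replicate 3 (adjusted p = 0.05).

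*KRT80* was the most abundant of the 10 in each group, and its change with sorting was under 2-fold in both lines. Negative SW1990 samples held 56.8, 49.4 and 46.0 RPKM and positive ones 73.3, 80.3 and 78.2. The values in CFPAC-1 were 47.9, 51.5 and 53.6 RPKM in negative and 63.7, 56.1 and 74.7 in positive samples. Positive samples were higher than negative ones in each line without overlap. The log2 fold change was 0.61 ± 0.11 in SW1990 (SE; limma, adjusted p = 0.00136) and 0.34 ± 0.11 in CFPAC-1 (adjusted p = 0.0329), both under 2-fold and not called. Their difference, 0.27 ± 0.16, was not called (adjusted p = 0.226).

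Of the 10 keratins, 6 changed more towards positive cells in SW1990 than in CFPAC-1 and 2 (*KRT5* and *KRT6A*) less, by the test of the difference. The calls of *KRT15*, *KRT16*, *KRT17* and *KRT5* held under every alternative setting tried, while those of *KRT4*, *KRT6A*, *KRT6B* and *KRT13* were each lost under some, as given above. Over all genes the shares that changed more and less were 9.16% and 17.8%, or 26.9% in either direction. The median difference was 1.72 over the 10, or 1.29 with *KRT6B* in CFPAC-1 at its ratio of reads and *KRT14* left out, beside -0.15 over all genes. Centring each sample on its median brought the median of all genes to 0.00081 and the share of called genes that were higher from 34% to 50%. In CFPAC-1 the same step took that share from 57.7% to 45.8%.

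**Figure D2:**
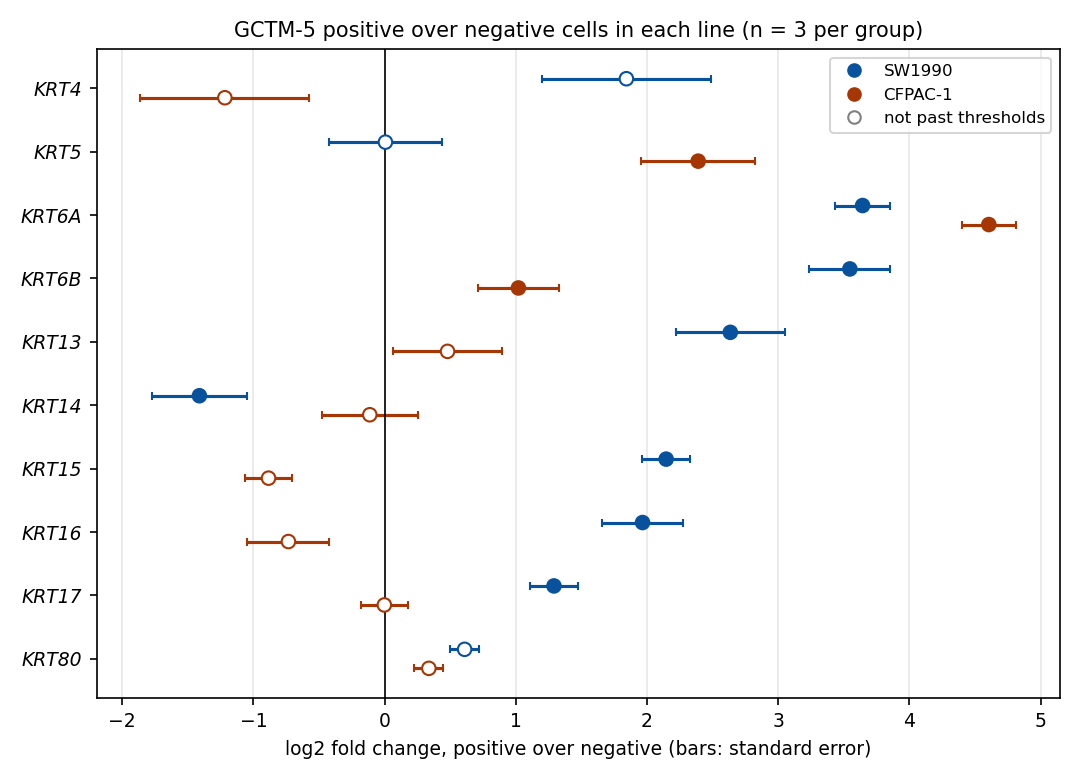
Log2 fold change of each keratin on the scale of log2(RPKM + 0.1), GCTM-5 positive over negative cells, in SW1990 (blue) and CFPAC-1 (brown), with the standard error from limma and 3 samples per group. Filled points passed both thresholds. *KRT6A* and *KRT6B* are filled in both lines, *KRT5* in CFPAC-1 alone and *KRT13* to *KRT17* in SW1990 alone, with *KRT14* below 0. In CFPAC-1 *KRT6B* and *KRT14* are plotted as fitted, though negative samples were at the limit of depth for both and positive samples for *KRT14*.

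Cells of the same antigen state were then compared between the lines. These comparisons share their samples with the ones above. In negative cells, 4 keratins were higher in SW1990 (*KRT5*, *KRT6A*, *KRT6B* and *KRT14*), 4 were lower (*KRT4*, *KRT13*, *KRT15* and *KRT16*), and *KRT17* and *KRT80* were not called. Over all genes 21.9% were called higher and 15.0% lower, or 36.9% in either direction. The 8 called keratins were those whose samples did not overlap, a state found for 43.8% of all genes on the higher side and 31.4% on the lower side.

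In negative cells *KRT5* was 40.0-fold higher in SW1990, a log2 fold change of 5.32 ± 0.43 (SE; limma, adjusted p = 4.24e-07), and *KRT6A* was 21.0-fold higher (4.39 ± 0.21, adjusted p = 4.3e-09). Negative CFPAC-1 samples held 0 to 8 reads of *KRT5* and 4 to 9 of *KRT6A*. Over all settings the log2 values ran from 2.92 to 6.88 for *KRT5* and from 2.34 to 5.11 for *KRT6A*. These fitted folds are not on the scale of the ratios of reads that follow. By pooled reads, *KRT14* was 38.8-fold higher in SW1990 (78 against 2 reads, exact 95% interval 10.4 to 326) and *KRT6B* 15.4-fold higher (31 against 2 reads, 3.93 to 133). In the other direction, *KRT16* was 45.4-fold and *KRT15* 36.0-fold higher in CFPAC-1 (log2 fold changes of -5.50 ± 0.31 and -5.17 ± 0.18, adjusted p = 1.97e-08 and 4.38e-10). *KRT4* was 14.0-fold and *KRT13* 4.60-fold higher in CFPAC-1 (-3.81 ± 0.64 and -2.20 ± 0.42, adjusted p = 0.000208 and 0.000482). *KRT17* differed by -0.26 ± 0.18 and *KRT80* by -0.01 ± 0.11. The members of a known pair thus lay on the same side for *KRT5* with *KRT14* and for *KRT4* with *KRT13*, and on opposite sides for *KRT6A* with *KRT16*.

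In positive cells 5 keratins were called higher in SW1990 (*KRT5*, *KRT6A*, *KRT6B*, *KRT14* and *KRT17*) and 2 lower (*KRT15* and *KRT16*), against 14.8% and 13.7% of all genes, or 28.5% in either direction. The same 7 did not overlap, as did 33.9% of all genes on the higher side and 30.0% on the lower side. *KRT6B* was 15.3-fold (3.93 ± 0.31, limma, adjusted p = 4.83e-07), *KRT6A* 10.8-fold (3.43 ± 0.21, adjusted p = 5.22e-08) and *KRT5* 7.67-fold (2.94 ± 0.43, adjusted p = 9.07e-05) higher in SW1990. By pooled reads *KRT14* was 20.3-fold higher (20 against 1 reads, exact 95% interval 3.25 to 841). *KRT17* was 2.05-fold higher (1.04 ± 0.18, adjusted p = 0.000346), and this fell just under 2-fold with centring, with quantile normalization and without positive replicate 2 of SW1990 or of CFPAC-1 (0.87 to 1.00).

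Also in positive cells, *KRT16* was 6.99-fold and *KRT15* 4.40-fold higher in CFPAC-1 (adjusted p = 9e-06 and 9.95e-07). *KRT4* was not called (-0.75 ± 0.64, adjusted p = 0.33), though without positive CFPAC-1 replicate 3 it was at -1.67 (adjusted p = 0.00546). *KRT13* (-0.05 ± 0.42) and *KRT80* (0.26 ± 0.11, adjusted p = 0.0582) were not called either. The median log2 fold change of the 10 keratins between the lines was -0.13 in negative cells and 0.65 in positive cells, both unaltered with *KRT6B* and *KRT14* at their ratios of reads, beside 0.19 and 0.06 for all genes. Centring took the median of all genes in negative cells to 0.006.

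**Figure D3:**
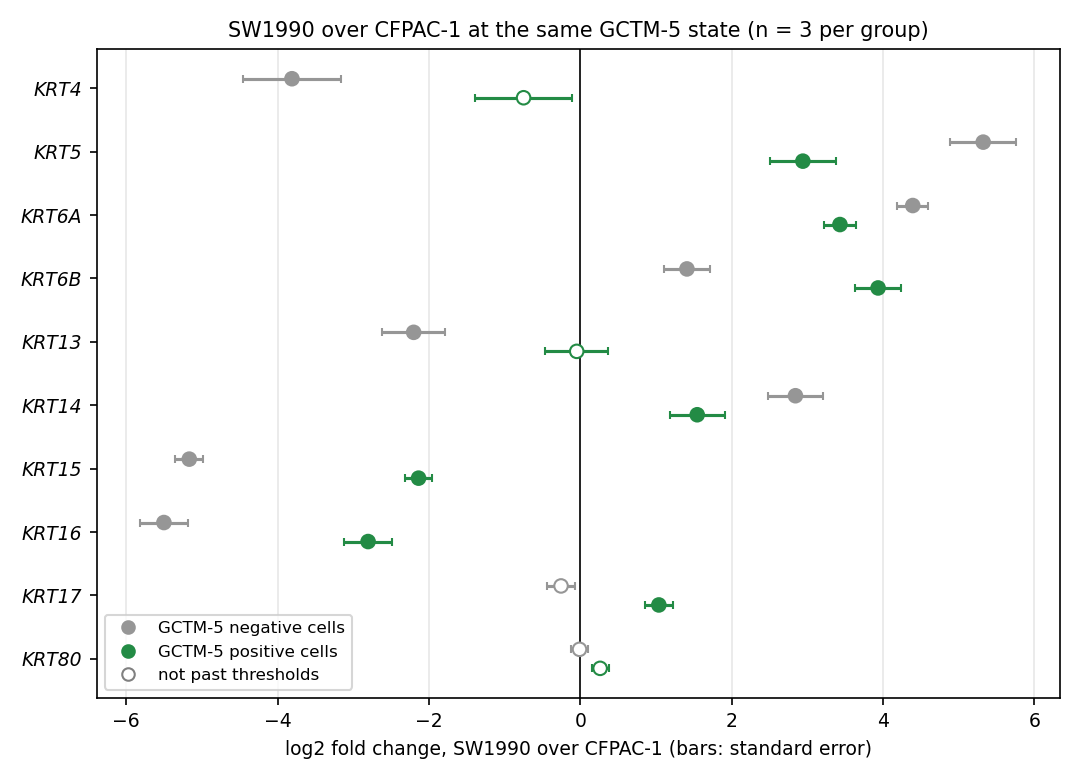
Log2 fold change of each keratin on the scale of log2(RPKM + 0.1), SW1990 over CFPAC-1, in GCTM-5 negative (grey) and positive (green) cells, with the standard error from limma and 3 samples per group. Filled points passed both thresholds. *KRT5*, *KRT6A*, *KRT6B* and *KRT14* lie to the right of 0 and *KRT15* and *KRT16* to the left in both states. *KRT6B* and *KRT14* are plotted as fitted, though CFPAC-1 samples of negative cells were at the limit of depth for both and those of positive cells for *KRT14*.

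Ordered by RPKM, *KRT80* led in every group, followed by *KRT17* in SW1990 and in positive CFPAC-1 cells and by *KRT15* in negative CFPAC-1 cells. In negative SW1990 cells the first 5 places (*KRT80*, *KRT17*, *KRT5*, *KRT6A* and *KRT15*) were separated in all samples, and the 5 keratins below them overlapped with their neighbours. In positive SW1990 cells *KRT6A*, at 60.8 RPKM, joined *KRT17* at 65.3 and *KRT80* at 77.3, each overlapping the next. In negative CFPAC-1 cells *KRT80*, *KRT15*, *KRT16* and *KRT17* formed a top group of overlapping neighbours with means of 51.0 to 31.8 RPKM. Positive CFPAC-1 cells had the same 4 on top with no overlap between neighbours.

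Summed over the 10 genes, the level was 92.7 ± 2.26 RPKM (SD, n = 3) in negative and 228 ± 26.2 in positive cells of SW1990, and 172 ± 35.9 and 153 ± 14.4 in those of CFPAC-1. *KRT6A* made up 5.12% of that sum in the negative cells of SW1990 and 26.7% in the positive ones, and 0.0750% and 3.59% in CFPAC-1. *KRT80* was at 54.7% and 34.1% in SW1990 and 30.3% and 42.2% in CFPAC-1. *KRT15* and *KRT16* together with *KRT17* carried most of the type I share in CFPAC-1, where *KRT15* took 27.1% and 16.2% and *KRT16* 18.8% and 12.1% of the sum. In SW1990 *KRT15* and *KRT16* each stayed below 2.5% on average.

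The balance of the protein types also differed. The 5 type II genes summed to 63.4 RPKM in the negative cells of SW1990 and 151 in the positive ones, and the 5 type I genes to 29.3 and 77.0. In CFPAC-1 the type II sum was 58.2 in negative and 75.3 in positive cells, and the type I sum 114 and 78.2. SW1990 thus held more type II than type I RNA among the 10 genes in both states, whereas negative CFPAC-1 cells held more type I and positive cells about as much of each. No test was made of these sums.

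**Figure D4:**
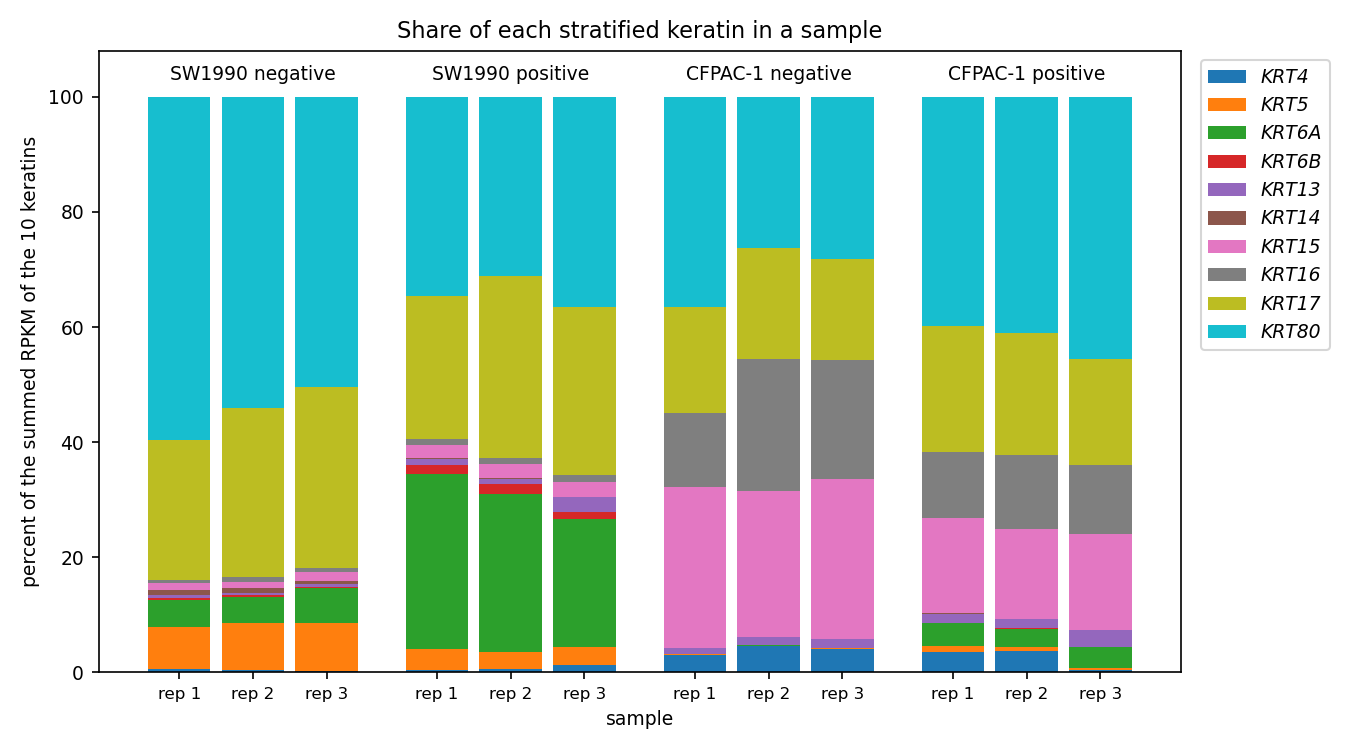
Share of each keratin, in percent of the summed RPKM of the 10 genes, in each of the 12 samples, grouped by line and antigen. *KRT6A* (green) widened from negative to positive cells of SW1990, and *KRT15* (pink) and *KRT16* (grey) were wide in CFPAC-1 and narrow in SW1990.

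The simple keratins outweighed the stratified ones in all samples. *KRT7*, *KRT8*, *KRT18*, *KRT19*, *KRT20* and *KRT23* together were at 1775 ± 196 RPKM in the negative cells of SW1990 and 4257 ± 284 in the positive ones, and at 5595 ± 395 and 6980 ± 794 in CFPAC-1 (SD, n = 3). The 10 stratified keratins made up 5.00% and 5.10% of both sums in SW1990 and 2.97% and 2.16% in CFPAC-1. In SW1990, 4 of the 6 simple keratins rose (*KRT8* by 1.39, *KRT18* by 1.29, *KRT19* by 1.57 and *KRT23* by 1.83 on the log2 scale), and in CFPAC-1 none rose and 2 fell (*KRT20* by 1.93 and *KRT23* by 1.69). For *KRT23* the CFPAC-1 groups overlapped, at 73.0 to 96.7 RPKM in negative and 13.9 to 74.9 in positive samples. *KRT7*, *KRT8* and *KRT18* were higher in every positive CFPAC-1 sample (0.86, 0.70 and 0.70), under 2-fold and not called. The shares called over all genes were 4.59% higher and 7.48% lower in SW1990, and 5.65% and 4.13% in CFPAC-1. The median log2 fold change of the 6 simple keratins was 1.34 in SW1990, beside 1.90 for the stratified keratins, and 0.28 in CFPAC-1. For all genes it was -0.04 and 0.05. *KRT23* was nearly absent from SW1990, at 0.0485 RPKM in negative and 0.450 in positive cells.

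Of 11 further keratins of stratified epithelia, 3 passed the filter on low values and 1 was called, *KRT78* in SW1990 (1.71 ± 0.40, adjusted p = 0.00675), with means of 0.106 and 0.571 RPKM. *KRT1* and *KRT2*, which mark the cornifying epidermis, were listed at 0 in all 12 samples.

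All 23 transcription regulators of stratified epithelia that were listed passed the filter. With the antigen in SW1990, 10 of them rose and none fell, against 4.59% and 7.48% of all genes. Among the highest log2 fold changes were those of *OVOL1* (4.04) and the grainyhead factor *GRHL2* (2.81), and the 3 lowest of those called were *GATA3* (1.25), *ELF3* (1.39) and *GRHL3* (1.52). In CFPAC-1, 3 rose (*SOX15* by 1.25, *GRHL1* by 1.18 and *GRHL2* by 1.04) and none fell, against 5.65% and 4.13% of all genes. The medians of the 23 were 0.68 and 0.07, beside -0.04 and 0.05 for all genes. From these same samples the study had named *GRHL1*, *GRHL2* and *GRHL3* as higher in positive cells, so their calls are not an independent result. *TP63*, which encodes p63, the master regulator of the basal layer, was singled out after its values were seen. Its levels were 4.35 ± 0.806 RPKM in the negative cells of SW1990, 2.95 ± 1.09 in the positive ones and 0.0104 and 0.0265 in CFPAC-1, so that negative SW1990 cells were 433-fold higher by pooled reads (1740 against 4 reads, exact 95% interval 169 to 1592). With sorting in SW1990 it was not called (-0.58 ± 0.28, limma, adjusted p = 0.145). *KRT5* and *KRT14* were likewise higher in SW1990 in both states, and any part of *TP63* in their levels was not tested.

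Of 14 proteins that anchor or bind keratin filaments, 8 rose and none fell in SW1990, and 5 rose and none fell in CFPAC-1. The shares called over all genes were 4.59% higher and 7.48% lower in SW1990, and 5.65% and 4.13% in CFPAC-1. In SW1990 the highest were *TRIM29*, a tripartite motif protein (2.88), *PPL*, which encodes periplakin (2.30), and *JUP*, which encodes plakoglobin (2.07), and the lowest called were the desmosomal *PKP2* (1.12), *FAM83H* (1.47) and *SFN* (1.61). In CFPAC-1 they were *PKP1* (1.76), *PKP2* (1.43), *TRIM29* (1.41), *EPPK1*, which encodes epiplakin (1.23), and *FAM83H* (1.03). The median log2 fold change of the 14 was 1.29 in SW1990 and 0.53 in CFPAC-1, beside -0.04 and 0.05 for all genes. *PKP2* and epiplakin had been named by the study from these same samples as higher in positive cells, so their calls are not an independent result.

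General epithelial markers moved with the keratins in SW1990. Of 12 such genes (among them *EPCAM*, *CDH1* and 4 simple keratins), 11 rose in positive SW1990 cells and none was called in CFPAC-1. Their summed RPKM ran from 1741 to 2033 in the negative samples of SW1990 and 5117 to 5406 in the positive ones, and from 7207 to 8223 and 7726 to 9487 in CFPAC-1. Of 12 mesenchymal markers, 9 passed the filter, and 7 of these fell in SW1990 and 2 (*SPARC* and *ZEB1*) in CFPAC-1. Their sums ran from 1311 to 1485 and 221 to 406 in SW1990, and from 559 to 761 and 429 to 602 in CFPAC-1. *TWIST1* was at 0 in every sample. The part of this shift in the keratin changes was not tested. The shares called over all genes were 4.59% higher and 7.48% lower in SW1990, and 5.65% and 4.13% in CFPAC-1. Of the mesenchymal list, *SPARC*, *FN1*, *ZEB1* and *ZEB2* had been named by the study from these same samples as higher in negative cells. Calls of these genes are not an independent result.

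Markers of other cell types were present in part. Of 10 genes of cornified keratinocytes, *KRT1*, *KRT2* and *LOR* were at 0 in all 12 samples and 6 of the 10 were below 0.1 RPKM in all. *KRT10*, the partner of *KRT1*, averaged 7.84 (negative) and 7.56 RPKM (positive) in SW1990 and 34.2 and 38.3 RPKM in CFPAC-1, and *FLG*, at 25.2 and 47.0 RPKM, carried most of the sum in SW1990. The sums of the list ran from 30.1 to 38.4 in the negative samples of SW1990, 48.4 to 71.6 in the positive ones and from 35.0 to 36.8 and 36.4 to 48.5 in CFPAC-1. Of the leukocyte genes, *PTPRC* and *CD3E* were below 0.1 RPKM in all samples, and the sums, carried by *LYZ* and *CD68*, ran from 34.7 to 48.1 and 16.0 to 34.4 in SW1990 and from 170 to 200 and 160 to 224 in CFPAC-1.

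Genes outside the 10 whose log2 levels were most like those of a keratin over the 12 samples were sought among 13259 genes with a mean of at least 1 RPKM, by Pearson correlation. The samples of a group share a line and an antigen state, so that the correlations mainly follow 4 group levels and are given without a p. For *KRT6A* these were *SAPCD2* (0.987), *MIS18A* (0.986) and *GGCT* (0.985), and for *KRT6B* *C9orf169* (0.979), *TRIM16* (0.977) and *PAPL* (0.972). For *KRT15* they were *PADI1* (0.998), *ELF3* (0.994) and *GPR35* (0.994), and for *KRT16* *PIK3AP1* (0.993), *SORL1* (0.991) and *B3GALT5* (0.988). For *KRT17* they were *XDH* (0.956), *EPHB3* (0.940) and *C19orf21* (0.937). *PADI1* had the highest value of all, with 26.8 RPKM in negative and 90.3 in positive cells of SW1990 and 525 and 296 in those of CFPAC-1.

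*KRT5* was most like *FAM171B* (0.984), *SAP130* (0.984) and *SMOC2* (0.983), and *KRT4* most like *CEP70* (0.962), *FCHO2* (0.942) and *TOM1L1* (0.941). For *KRT13* the genes were *CDC42BPG* (0.950), *CRB3* (0.942) and *MREG* (0.937), and for *KRT80* *NAPRT1* (0.931), *ESRP2* (0.927) and *MAPKAPK3* (0.923). *KRT14*, which reached 1 RPKM in no group, was left out.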

How the data were processed

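Poly(A) RNA of 12 sorted samples was sequenced. Per the study's methods, reads were aligned to GRCh37 (hg19) and quantified with QuasR, and the authors deposited RPKM values, that is, reads scaled by library size and gene length. The annotation, the use of strand and the treatment of reads matching several genes are not given in the sources used here. Library totals and whole reads were recovered from the RPKM values (all 19654 genes above 0 came out whole, within 0.01 of a read) by means of single-exon gene lengths, and served for read numbers, ratios of pooled reads and a voom fit. Whether a read or a pair was counted as 1 is unknown, and a gene's reads may be too low by a common factor.

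The 16236 of 23346 genes whose mean RPKM reached 0.1 were fitted as log2(RPKM + 0.1) with limma 3.58.1 in R 4.3.3, as 4 group means, with eBayes and a trend. Calls are as in the text. Some listed genes are not reported here. The study names TCC, which was not used. Steps were tested on simulated data. The keratins, the lists and the rule for named genes (all 10 keratins, at most 6 called genes of each list with the highest and lowest changes, and the 3 genes most like each keratin) were chosen with earlier results of these data known. Alternatives were other pseudocounts, filters, scalings and call rules, eBayes without a trend, voom, each line alone, a replicate block and leaving out each sample. Coordinates are from GENCODE on GRCh37, and promoters from RefSeq on GRCh38.p14.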

Additional observations from a re-analysis of the deposited data

Results flagged for a closer look

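For 8 of the 10 keratins the change from GCTM-5 negative to positive cells differed between the lines by the test of the difference in limma. Over all genes that test called 26.9%. On the log2 scale, SW1990 minus CFPAC-1, the values were 3.06 for *KRT4*, 3.03 for *KRT15*, 2.70 for *KRT16*, 2.53 for *KRT6B*, 2.155 for *KRT13* and 1.29 for *KRT17*, and they were -2.38 for *KRT5* and -0.96 for *KRT6A*. *KRT15* was higher in 3 of 3 positive SW1990 samples and lower in 3 of 3 positive CFPAC-1 samples than in any negative sample of its line. The value of *KRT6A* turned sign with a pseudocount of 1 alone. The call of *KRT6B* was lost with a pseudocount of 0.01 (1.37, adjusted p = 0.24) and on recovered reads (1.42, adjusted p = 0.252), that of *KRT4* when any 1 of 5 samples was left out and with no filter (adjusted p = 0.0822), and that of *KRT13* with no filter (adjusted p = 0.0552), with a pseudocount of 1 and without 1 sample. No group had enough samples for a search for single outlying samples.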

How the results depend on the processing

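Of 1090 values of single keratins under alternatives, 1018 kept their direction and their side of the thresholds, 42 kept the direction but lost the call, 12 gained a call and 18 turned sign. In SW1990 the number of keratins called lower, 1 (*KRT14*), was 0 with a pseudocount of 1 or 0.01, a mean RPKM of at least 1 or the line fitted alone, and 0 to 1 without single samples. In CFPAC-1 the number called higher, 3, was 1 with a pseudocount of 1 and 2 to 3 without single samples. Centring also lost the call of *KRT6B* there. The number called lower in CFPAC-1, 0, was 1 (*KRT15*) by adjusted p under 0.05 alone and 0 to 2 without single samples. For the difference between lines the number called higher, 6, was 4 to 6 without single samples. With no filter, *KRT4* and *KRT13* lost their calls of the difference. The number called lower for the difference, 2, was 1 with no filter, with centring and with a replicate block, and 1 to 3 without single samples. In negative cells the number higher in SW1990, 4, was 2 with a pseudocount of 1 or a mean RPKM of at least 1, and in positive cells, 5, it was 3 with the latter, which left 8 keratins in the fit (without *KRT6B* and *KRT14*).

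Values turned sign where the change was near 0. With voom the log2 fold change in CFPAC-1 was 0.0091 for *KRT14* and 0.0057 for *KRT17*, and in positive cells *KRT13* differed between lines by 0.058. Without single samples, *KRT5* in SW1990 ran from -0.034 to 0.050, *KRT14* in CFPAC-1 from -0.22 to 0.10, *KRT17* in CFPAC-1 from -0.19 to 0.14, *KRT80* between lines in negative cells from -0.095 to 0.057 and *KRT13* between lines in positive cells from -0.47 to 0.28. The exception was *KRT6A*, whose difference between lines was 0.90 with a pseudocount of 1, past the threshold.

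Samples with the same replicate number deviated together with correlations of 0.185, 0.016 and 0.116 in SW1990 and -0.02, 0.001 and -0.059 in CFPAC-1, so the numbers were not taken as pairs. With the number as a replicate block, the call of the difference for *KRT6A* was lost (-0.96, adjusted p = 0.0773) and no other call of a keratin changed. With 3 samples a group and 0 to 9 reads of *KRT5*, *KRT6A*, *KRT6B* and *KRT14* in negative CFPAC-1 libraries, the size of changes from these levels depends on the pseudocount.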

Other observations

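*FLG*, which encodes filaggrin of the cornified layer, was at 25.2 ± 3.51 RPKM in the negative cells of SW1990 and 47.0 ± 11.9 in the positive ones (SD, n = 3), where *KRT1*, *KRT2* and *LOR*, usually expressed with it in epidermis, were at 0 and *KRT10*, also expressed there, was at 7.84 and 7.56 RPKM. Its log2 fold change with sorting was 0.88 (limma, adjusted p = 0.015), under 2-fold, with 3 of 3 positive samples above all negative ones. In CFPAC-1 it was at 0 in negative and 0.0835 RPKM in positive cells. *CDSN*, which encodes corneodesmosin, rose in CFPAC-1 by 1.72 on the log2 scale (adjusted p = 0.000248), from 1.65 ± 0.218 to 5.78 ± 1.68 RPKM, and was at 1.40 and 1.48 RPKM in SW1990. *TFAP2C*, an AP-2 factor of the surface ectoderm, was at 0 in all SW1990 samples, and in CFPAC-1 at 2.89 ± 0.772 RPKM in negative cells and 4.55 ± 0.276 in positive ones. These 3 genes were singled out after their values were seen.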
